A study of Mus musculus with 8 samples.

Results

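The 86 genes described here encode nuclear subunits and close partners of the oxidative phosphorylation system. They were taken by symbol, as the genes named Nduf (followed by A, B, C, S or V), Sdh, Uqcr, Cyc1, Cox4 to Cox8 and Atp5 in the deposited tables, out of 21949 genes in all. Symbols put 38 of them in complex I, 4 in complex II, 9 in complex III, 18 in complex IV and 17 in complex V. Each gene stands here for its transcript with the highest mean count. The measurements come from 8 libraries of C57BL/6 mouse testis at postnatal day 24: Miwi-null total RNA, WT total RNA, Miwi-null ribosome-protected fragments (RPF, or footprints) and WT RPF, with 2 libraries each. Miwi, encoded by Piwil1, is a PIWI protein of male germ cells that carries piRNAs. The labels give neither the allele behind the null genotype nor how many animals went into a library, so the p-values speak to library spread alone, which may be technical.

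Oxidative phosphorylation takes electrons from NADH at complex I and from succinate at complex II, passes them through complex III and cytochrome c to oxygen at complex IV, and pumps protons at complexes I, III and IV. Complex V, the ATP synthase, makes ATP as protons flow back. Most subunits are encoded in the nucleus, made on cytosolic ribosomes and imported, while a small core is encoded in mitochondrial DNA. In testis several subunits exist in forms made mainly by germ cells, among them Cox6b2, Cox7b2 and Cox8c of complex IV and the cytochrome c gene Cyct. The nuclear genes of the system are classical targets of the transcription factors NRF1 and GABP, an ETS family protein.

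Promoter windows of 3 members are printed because genes of this system are known NRF1 and GABP targets and because Atp5k had the largest RNA change of all members. All 3 were chosen after values and matches were seen. Ndufa11 was chosen for its matches and Cox6b2 as a testis form whose RNA change was not called in the plain fit described below. The windows run from 250 bases before to 50 bases after the RefSeq gene start (RefSeq, GRCm38.p6), read 5′ to 3′ on the gene's strand. Capitals mark matches, on either strand, to the NRF1 consensus (the letters GCGCA followed by their reverse complement, 10 bases in all), the ETS core CCGGAAG, the cAMP response element TGACGTCA or the box CCAAT, and no match overlaps another in these windows. Atp5k lies at chr5:108434350-108434649 on the minus strand and holds the NRF1 and ETS letters. Ndufa11 lies at chr17:56717512-56717811 on the plus strand and holds the cAMP response element and the NRF1 letters. Cox6b2 lies at chr7:4753045-4753344 on the minus strand and holds CCAAT letters 3 times.
Atp5k: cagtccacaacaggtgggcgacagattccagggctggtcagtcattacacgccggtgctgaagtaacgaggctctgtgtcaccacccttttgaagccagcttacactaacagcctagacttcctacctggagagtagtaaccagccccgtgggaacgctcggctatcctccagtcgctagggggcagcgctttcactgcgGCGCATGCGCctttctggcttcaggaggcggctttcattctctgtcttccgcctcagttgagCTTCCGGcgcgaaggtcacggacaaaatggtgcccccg
Ndufa11: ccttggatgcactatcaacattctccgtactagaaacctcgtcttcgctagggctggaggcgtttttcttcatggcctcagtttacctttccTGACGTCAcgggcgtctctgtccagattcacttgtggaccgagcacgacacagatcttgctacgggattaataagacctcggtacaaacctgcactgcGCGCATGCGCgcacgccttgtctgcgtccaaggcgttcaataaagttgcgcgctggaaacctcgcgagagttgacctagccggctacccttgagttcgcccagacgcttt
Cox6b2: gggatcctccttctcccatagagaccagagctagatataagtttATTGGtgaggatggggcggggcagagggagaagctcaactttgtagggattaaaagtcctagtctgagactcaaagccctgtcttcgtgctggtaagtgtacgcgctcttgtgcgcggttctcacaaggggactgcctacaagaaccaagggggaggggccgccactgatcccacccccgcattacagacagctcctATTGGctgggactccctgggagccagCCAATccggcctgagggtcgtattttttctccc

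A window was found for 69 of the 86 members, and 5 of these had more than 1 window. The NRF1 letters were in 5 of the 69 members (7.25%), against 1.07% of the 27025 genes with a window. The ETS letters were in 16 members (23.2%), against 9.93% of all genes, and the cAMP response element was in 4 members (5.8%), against 2.03%. CCAAT was in 30 members (43.5%) and in 41.1% of all genes. These are letter matches in a short window and were not tested against binding. Among the 18 matched members with lower RNA and higher translational efficiency in the null testes, described below, 3 held the NRF1 letters and 4 the ETS letters.

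The libraries held 11130949 to 15592797 gene counts in RNA and 11662661 to 28334622 in RPF, so that 1 count stood for 0.034 to 0.0893 CPM, the counts scaled to a common library total. Piwil1 was at 3.52 and 2.27 CPM in null RNA, against 552 and 533 CPM in WT RNA, so each genotype label matched its libraries. Null RPF replicate 2 and WT RPF replicate 1 deviated from their groups in the same direction: across 10171 genes, the deviations of same-numbered null and WT footprint libraries correlated at r = -0.808, where genes are not independent replicates. The same libraries are the deepest, and footprint values of many members differ widely between replicates. Over the members, the SD of the log2 difference between replicates was 0.17 in null RNA, 0.186 in WT RNA, 0.411 in null RPF and 0.514 in WT RPF. Summed over 10 markers, elongating spermatid RNA was at 2018 and 2026 CPM in null testes, against 15975 and 15779 CPM in WT testes, and Leydig cell RNA at 2396 and 2408 CPM in null testes, against 1323 and 1317 CPM in WT testes. By gene, RNA was lower for all 10 elongating spermatid markers. Of the 10 Leydig markers, RNA was higher for 4, lower for 1 and not called for 5 (edgeR, adjusted p under 0.05). The part of these cells in the results below was not tested. In a bulk sample, fewer cells of a type and less RNA per cell cannot be told apart.

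Of the 86 genes, 84 passed the filter on low counts. Cox8b and Cox6a2, the muscle forms of their subunits, did not, and the highest FPKM of either in any library was 0.404. The members made up 0.615% and 0.624% of all RNA counts in null testes, against 0.706% and 0.75% in WT testes. They made up 2.25% and 2.24% of all footprint counts in null testes, against 2.13% and 2.22% in WT testes. The RNA share was thus lower in both null libraries than in both WT libraries, while the footprint share was slightly higher in both null libraries.

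Per unit of coding length, complex IV stood highest, though its coding sequences are also the shortest, with a median of 253.5 bases. Its 16 tested members had a median RNA level of 188 FPKM in null testes and 232 FPKM in WT testes, and a median footprint level of 1225 FPKM in null testes and 1210 FPKM in WT testes. Complex I had medians of 64.1 FPKM in null RNA, 79.1 FPKM in WT RNA, 348 FPKM in null RPF and 369 FPKM in WT RPF. Complexes III and V lay between them, at 99.3 and 95.3 FPKM in null RNA and 136 and 135 FPKM in WT RNA. Complex II, with 4 genes, was the most even, its RNA levels running from 48.2 to 77.7 FPKM in null testes and from 51.9 to 89.6 FPKM in WT testes. Complex IV was the most uneven and holds nearly absent tissue forms beside very abundant ones. Its upper quartile of footprints was 11.2 times the lower one in null testes and 10.6 times in WT testes. Mean RNA inserts were 244.5 to 287.6 bases, and how fragments that reach beyond a coding sequence were counted is not given. Levels per unit of length are thus uncertain for such short genes.

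**Figure D1:**
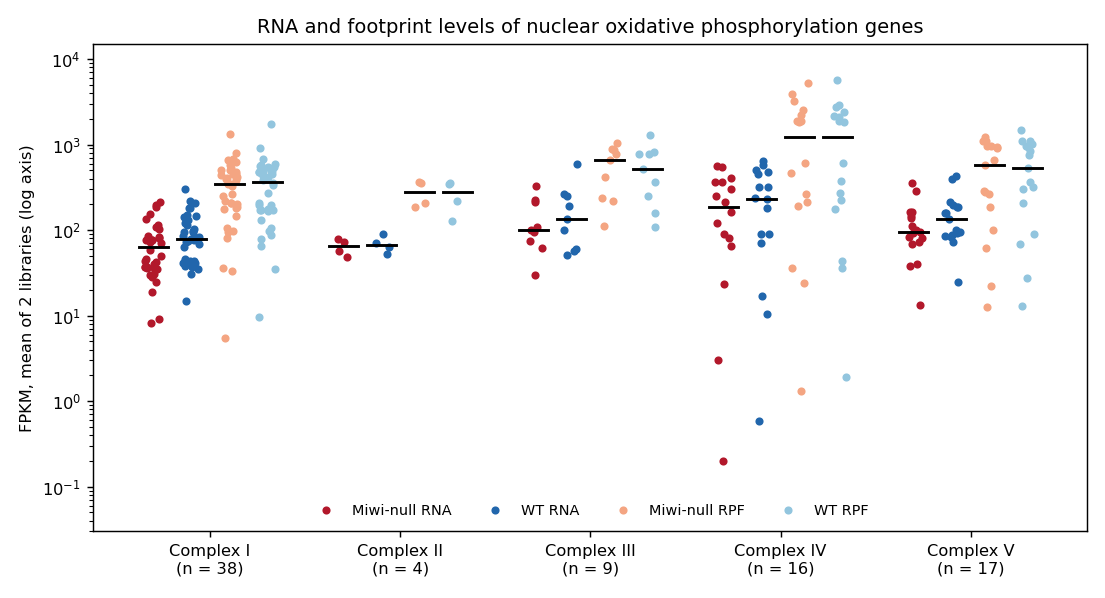
FPKM (log axis) of each tested member in Miwi-null RNA, WT RNA, Miwi-null RPF and WT RPF, by complex; each point is 1 gene, the mean of 2 libraries, and black bars are medians. Complex IV has the highest medians in all 4 groups and also the widest range, from 0.202 FPKM for the lowest gene to 567 FPKM for the highest in null RNA.

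The most heavily translated member was Cox8c, the testis form of subunit 8, whose footprints stood at 5721 and 4765 FPKM in null testes, against 4717 and 6662 FPKM in WT testes. Cox4i1, the general form of subunit 4, followed in null testes at 4226 and 3557 FPKM, against 2276 and 3272 FPKM in WT testes. The null and WT libraries overlapped for Cox8c and did not for Cox4i1. In RNA the order differed: the highest members were Cox7a2 (555 and 579 FPKM) and Cox6b2 (533 and 552 FPKM) in null testes, and Cox6b2 (630 and 641 FPKM) and Uqcrq (601 and 600 FPKM) in WT testes. The null RNA libraries of Cox7a2 lay just above those of Cox6b2, without overlap.

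The null RNA libraries had less RNA of many members. With edgeR's quasi-likelihood test and Benjamini-Hochberg adjustment over 16051 genes, 32 of the 84 members were lower in null RNA and 1 was higher, at an adjusted p under 0.05. Of all genes tested, 20.8% were lower and 16.5% higher, 37.3% in either direction. The median log2 change of the members was -0.33, against -0.07 over all genes, and 72 of 84 members had a negative change. Both null libraries were below both WT libraries in 64 members and above them in 8, against 43.1% below and 34.7% above among all genes. The size of the change varied widely among members, from -2.74 to 0.71 on the log2 scale. Of the 33 RNA calls, 18 held in all 18 alternative analyses. The number of RNA calls was 19, or 22.6% of members, without null RNA replicate 1, without null RNA replicate 2 or without WT RNA replicate 2, against 19.9%, 20.3% and 23.9% of all genes in those fits.

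Coding length moved with this result. The tested members had a median coding length of 417 bases, against 1362 bases over all tested genes, and 62 of 84 were under 600 bases. Per the labels, the mean insert was 288 and 284 bases in the null RNA libraries and 266 and 245 bases in the WT RNA libraries, and 28.5 bases in each footprint library. When a smooth trend on coding length was taken out of each library, 17 members fell and 10 rose in null RNA, against 18.2% and 17.9% of all genes, and the members' median became -0.07. In RPF, 7 were then higher and 2 lower, against 12.5% and 13.0%. Of the 32 genes lower in the plain fit, 17 were also lower with the trend removed. Those 17 included every member whose RNA fell by more than 1 on the log2 scale and was called, other than Uqcr11. The part of fragment size in the RNA changes was not tested.

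**Figure D2:**
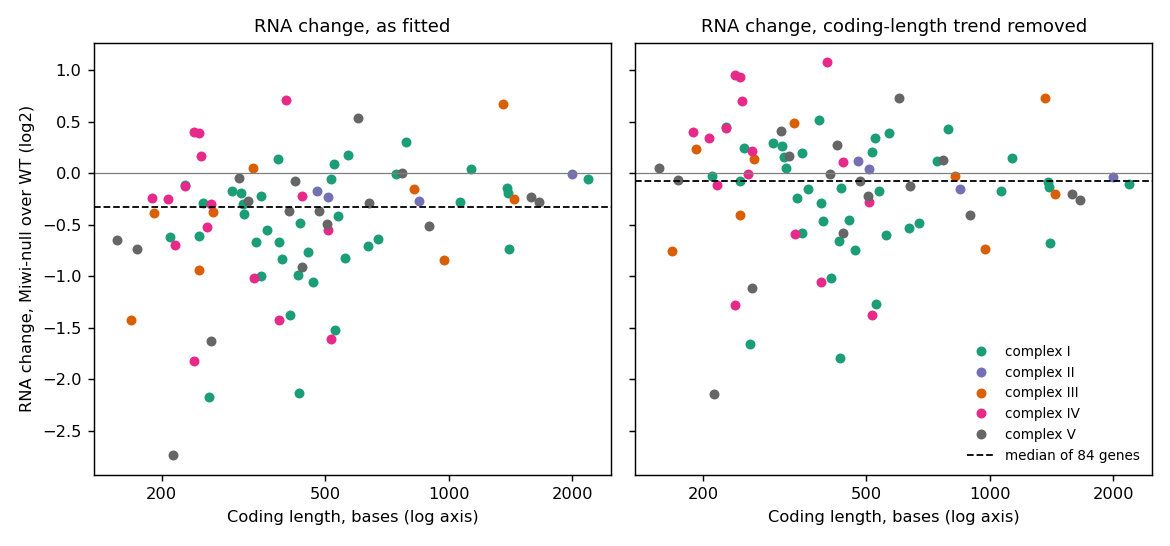
RNA change in Miwi-null over WT testes (log2) of the 84 tested members against coding length (log axis), as fitted on the left and with the coding-length trend removed on the right; each point is 1 gene, coloured by complex, and the dashed line is the median. The median is -0.33 as fitted and -0.07 with the trend removed, and Atp5k is the lowest point in both panels, at -2.74 as fitted and -2.14 with the trend removed.

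Few footprint changes of the members passed the test. Of 84 members, 4 were higher in null RPF and 2 were lower (edgeR, adjusted p under 0.05), against 12.0% higher and 13.4% lower among all genes, 25.4% in either direction. The median log2 change was 0.03, and 75 members changed by less than 0.5 on the log2 scale in either direction. The middle 50% of members ran from -0.13 to 0.20 in RPF and from -0.73 to -0.14 in RNA. Null and WT libraries overlapped in 57 members, both null libraries were above in 18 and below in 9, against 28.3% above and 29.3% below among all genes. Of the 6 calls, 0 held in all 18 alternatives and 2 held when any single library was left out. There were 3 calls without null RNA replicate 1 or without null RNA replicate 2, against 19.1% of all genes in either fit. Without WT RPF replicate 2 there were 26, or 31.0% of members, against 31.8% of all genes. With a block for the replicate number there were 3, against 19.1% of all genes. A block that crossed the replicate numbers of the footprint libraries, added after seeing their opposite deviations, called 25 members higher and 15 lower, together 47.6% of members, against 51.0% of all genes. The low count of footprint calls thus held with the replicate block, but not without WT RPF replicate 2 or with the crossed block.

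Translational efficiency (TE) is the ratio of footprints to RNA, and its change was tested as the interaction of genotype and assay. TE was higher in null testes for 23 members and lower for 0, against 7.36% higher and 7.56% lower among all genes. By edgeR 1 member was lower at an unadjusted p under 0.05, and DESeq2 also called 0 lower. The median log2 change of TE was 0.41, against 0.04 over all genes, and 74 of 84 members had a positive change. In 21 members RNA was lower, TE was higher and footprints were not called, a pair of RNA and TE calls found in 5.55% of all genes. Both calls of that pair use the same RNA values, so they are not independent. Taking out the length trend left TE higher for 14 members and lower for 2, against 6.30% and 7.79% of all genes, with a median of 0.19. The number of TE calls was 5 without either null RNA library, 8 and 7 without WT RNA replicates 1 and 2, 15 and 12 without null RPF replicates 1 and 2, and 35 without WT RPF replicate 2. Of all genes, 3.80% and 3.99% were called without null RNA replicates 1 and 2, 3.95% and 5.99% without WT RNA replicates 1 and 2, 10.9% and 10.2% without null RPF replicates 1 and 2, and 22.4% without WT RPF replicate 2. With a block for the replicate number it was 10, against 7.71% of all genes. The TE calls of Atp5k, Atp5j2, Ndufa13, Ndufb10 and Cyc1 held in all 17 alternatives.

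**Figure D3:**
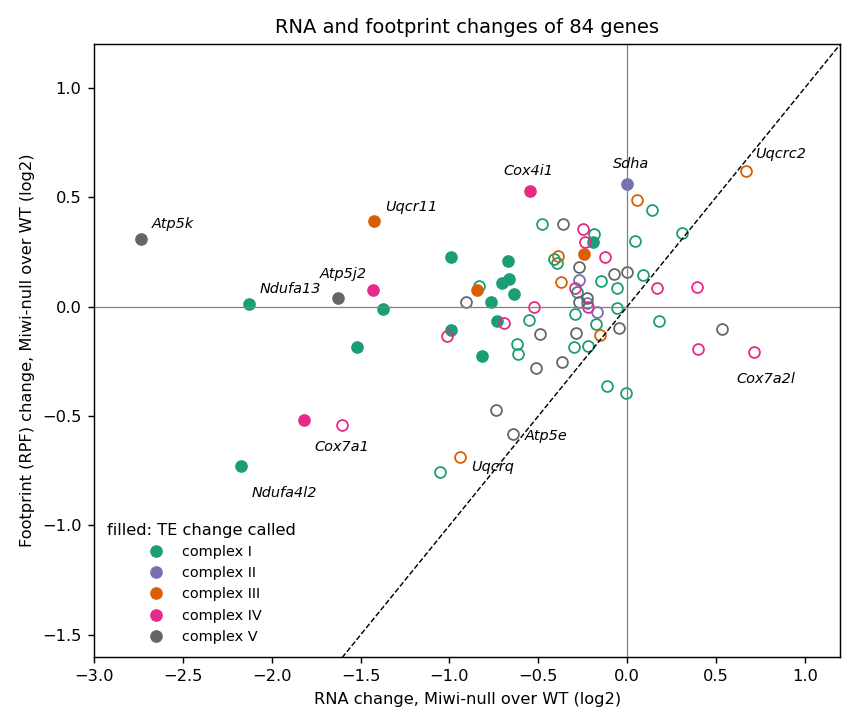
Footprint change against RNA change, Miwi-null over WT (both log2), for the 84 tested members; each point is 1 gene, coloured by complex, filled where its TE change was called, and the dashed line marks equal change. Points spread along the RNA axis down to -2.74 but stay between -0.75 and 0.62 on the footprint axis. Every called TE change was higher in null testes, so the place of filled points left of the dashed line is set by the choice.

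Complex I carries the most subunits, 7 conserved core subunits in the nuclear set and 31 accessory or related genes. RNA was lower in null testes for 14 of its 38 members, footprints were higher for 2, Ndufb6 and Ndufv1, and TE was higher for 14 (edgeR, adjusted p under 0.05), with no call in the other direction. These made up 36.8%, 5.26% and 36.8% of its members, against 20.8%, 12.0% and 7.36% of all genes. The median log2 change was -0.45 in RNA and 0.49 in TE. After the length trend was taken out, RNA was lower for 11 and higher for 3, TE was higher for 8, and the medians were -0.14 in RNA and 0.26 in TE. Of all genes, 18.2% were then lower and 17.9% higher in RNA, and 6.30% higher in TE. Without null RPF replicate 2 the median of TE was 0.29.

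Ndufa13, a membrane-arm subunit also known as GRIM-19, had the largest RNA change of complex I after that of Ndufa4l2, described below. Its RNA was at 20.1 and 17.8 CPM in null testes, against 84.6 and 81.2 CPM in WT testes. Its footprints were at 222 and 208 CPM in null testes, against 191 and 235 CPM in WT testes. The RNA values of the genotypes were far apart and the footprint values overlapped. On the log2 scale its RNA fell by 2.13 ± 0.13 (SE; edgeR adjusted p = 1.25e-05), and TE rose by 2.14 ± 0.18 (adjusted p = 0.000326). In the deposited FPKM the ratio of footprints to RNA was 12.4 and 13.9 in null testes, against 2.89 and 3.51 in WT testes.

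Ndufb10 and Ndufb7, accessory subunits of the membrane arm, showed the same form. Ndufb10 RNA was at 25.0 and 28.6 CPM in null testes, against 71.7 and 82.3 CPM in WT testes, a fall by 1.52 ± 0.11 (edgeR adjusted p = 3.26e-05). Its footprints were at 235 and 225 CPM in null testes, against 255 and 268 CPM in WT testes, and did not overlap, though the change was not called (-0.19 ± 0.11). Ndufb7 RNA was at 30.9 and 26.6 CPM in null testes, against 77.0 and 72.2 CPM in WT testes, while its footprints overlapped at 212 and 166 CPM in null testes and 156 and 224 CPM in WT testes. TE rose by 1.34 ± 0.15 for Ndufb10 and by 1.36 ± 0.27 for Ndufb7. The TE call of Ndufb7 was lost without any one of the RNA libraries, with adjusted p-values of up to 0.0773. Ndufa11, a membrane-arm subunit, was named after its values were seen: its RNA was at 23.5 and 21.4 CPM in null testes, against 44.2 and 45.3 CPM in WT testes, and its footprints overlapped. Its TE call was also lost without any one of the RNA libraries (adjusted p of up to 0.0688).

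Among the 7 core subunits, which hold the flavin and the iron-sulfur clusters, RNA was lower for 2, Ndufs7 and Ndufs8, and TE was higher for 3, Ndufs7, Ndufs8 and Ndufv1. The shares were 28.6% in RNA and 42.9% in TE, against 20.8% and 7.36% of all genes. Ndufs8 RNA was at 18.3 and 19.7 CPM in null testes, against 30.2 and 31.6 CPM in WT testes, and its footprints were at 120 and 115 CPM in null testes, against 103 and 115 CPM in WT testes, where the nearest libraries of the genotypes all but touched. The TE call of Ndufs8 was lost without either null RNA library, and that of Ndufs7 held in 10 of 17 alternatives and was lost without any one of the RNA libraries or without null RPF replicate 2. Ndufv1, which binds NADH, was the 1 core subunit whose footprints were called, at 359 and 362 CPM in null testes, against 295 and 293 CPM in WT testes. Its footprint rise of 0.30 ± 0.08 (edgeR adjusted p = 0.0293) held in 9 of 18 alternatives and did not pass without any one of the RNA or null RPF libraries, where adjusted p-values reached 0.206. Ndufs1, Ndufs3 and Ndufv2 were not called in any comparison between genotypes. Their RNA changes were -0.06 for Ndufs1, 0.31 for Ndufs3 and -0.01 for Ndufv2. That of Ndufs3 was called higher with the length trend removed (0.43, adjusted p = 0.0307), without TMM scaling (0.40, adjusted p = 0.0244) and without any one of 3 footprint libraries. Ndufb6, an accessory subunit, had footprints of 234 and 225 CPM in null testes, against 159 and 179 CPM in WT testes, a rise of 0.44 ± 0.14 (edgeR adjusted p = 0.0458) that held in 9 of 18 alternatives and was lost without either null RNA library, without either null RPF library or without WT RPF replicate 1.

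Ndufa4l2, a paralog of Ndufa4 known from hypoxic cells, had the largest fall of complex I, by 2.17 ± 0.26 in RNA (edgeR adjusted p = 0.000411), from few reads. Its RNA was at 1.91 and 3.23 CPM in null testes, against 11.3 and 11.7 CPM in WT testes. Its footprints were at 1.25 and 1.70 CPM in null testes, against 2.92 and 2.10 CPM in WT testes, and neither set overlapped. Its TE change of 1.44 ± 0.40 was called (edgeR adjusted p = 0.0451) and held in 5 of 17 alternatives, being lost without any one of the RNA or null RPF libraries (adjusted p of up to 0.244). Ndufa4 and Ndufa4l2 are grouped with complex I by symbol, although NDUFA4 is now counted with complex IV.

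All 4 subunits of complex II are nuclear, and 1 of them was called in RNA and 1 in footprints. That is 25% in each assay, against 37.3% and 25.4% of all genes called in either direction. Sdha, the flavoprotein that oxidises succinate, had RNA of 180 and 173 CPM in null testes, against 168 and 186 CPM in WT testes, and footprints of 402 and 368 CPM in null testes, against 244 and 278 CPM in WT testes. RNA overlapped, and both null footprint libraries were above both WT libraries. Footprints rose by 0.56 ± 0.10 (edgeR adjusted p = 0.0048) and TE by 0.56 ± 0.15 (adjusted p = 0.0372). The footprint call was lost only when the footprint libraries were fitted alone (adjusted p = 0.0664), whereas the TE call held in 7 of 17 alternatives and was lost without any one library other than WT RPF replicate 2. Sdhb, the iron-sulfur subunit, had RNA of 80.1 and 78.6 CPM in null testes, against 96.0 and 95.7 CPM in WT testes, a fall by 0.27 ± 0.09 (adjusted p = 0.0418) that held in 6 of 18 alternatives and was lost without any one of the RNA libraries, without null RPF replicate 2 or without WT RPF replicate 1. The membrane anchors Sdhc and Sdhd were not called, with RNA changes of -0.23 ± 0.12 and -0.17 ± 0.16 and footprint changes of 0.02 ± 0.11 and -0.03 ± 0.15.

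In complex III, RNA was lower in null testes for 6 of 9 members and higher for 1, footprints were higher for 1 and lower for 1, and TE was higher for 3 (edgeR, adjusted p under 0.05). Of all genes, 20.8% were lower and 16.5% higher in RNA, and 7.36% were higher in TE. The footprint shares, 11.1% each, were near the 12.0% and 13.4% of all genes. Without the length trend, RNA was lower for 2 and higher for 1, against 18.2% and 17.9% of all genes. Cyc1, the cytochrome c1 subunit that hands electrons to cytochrome c, had RNA of 35.5 and 34.8 CPM in null testes, against 65.6 and 60.6 CPM in WT testes. Its footprints were at 112 and 115 CPM in null testes, against 102 and 114 CPM in WT testes, and overlapped. RNA fell by 0.84 ± 0.10 (adjusted p = 0.000415) and TE rose by 0.92 ± 0.14 (adjusted p = 0.0052). The Rieske protein gene Uqcrfs1, the other catalytic nuclear subunit, was not called, with an RNA change of -0.15 ± 0.14.

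Uqcrc2, a core protein of complex III, was the member whose RNA was called higher. Its RNA was at 167 and 159 CPM in null testes, against 96.2 and 109 CPM in WT testes, and its footprints at 312 and 352 CPM in null testes, against 232 and 200 CPM in WT testes. Both assays separated the genotypes. RNA rose by 0.67 ± 0.12 (edgeR adjusted p = 0.0025) and footprints by 0.62 ± 0.11 (adjusted p = 0.00464), with no TE change called (-0.05 ± 0.16). Its partner Uqcrc1, the other core protein, differed: its RNA was at 386 and 393 CPM in null testes, against 478 and 445 CPM in WT testes, a fall by 0.24 ± 0.08 (adjusted p = 0.0485) that held in 5 of 18 alternatives and was lost without any one library other than WT RPF replicate 2.

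Uqcrq, a small subunit that contacts cytochrome b, was lower in both assays. Its RNA was at 99.0 and 95.8 CPM in null testes, against 186 and 187 CPM in WT testes, and its footprints at 165 and 232 CPM in null testes, against 350 and 291 CPM in WT testes. RNA fell by 0.94 ± 0.16 (edgeR adjusted p = 0.00232) and footprints by 0.69 ± 0.16 (adjusted p = 0.0131). The footprint call was lost without WT RPF replicate 1 and when the footprint libraries were fitted alone, with an adjusted p of up to 0.0998 over its alternatives. Uqcr11, another small accessory subunit, had RNA of 14.9 and 15.6 CPM in null testes, against 37.9 and 43.9 CPM in WT testes. Its footprints overlapped at 140 and 95.5 CPM in null testes and 61.2 and 119 CPM in WT testes. RNA fell by 1.42 ± 0.32 (edgeR adjusted p = 0.00945), a call lost without either null RNA library, without WT RNA replicate 2 and when the length trend was taken out (adjusted p of up to 0.166).

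Complex IV had RNA lower for 4 of 16 tested members, Cox4i1, Cox5b, Cox7a1 and Cox8c, and TE higher for 3 (edgeR, adjusted p under 0.05). Those lower in RNA made up 25%, near the 20.8% of all genes, and those higher in TE 18.8%, against 7.36%. In RPF 12.0% of all genes were higher and 13.4% lower. Footprint calls numbered 0, with 2 members higher and 1 lower at an unadjusted p under 0.05, and DESeq2 called 1 higher among the 13 members it was read for. All 16 have a coding length under 600 bases, with a median of 253.5 bases. Once the length trend was taken out, RNA was lower for 2 and higher for 5, footprints were higher for 2, and TE was higher for 1 and lower for 2, so the balance of calls in this complex turns with that step. Of all genes, 18.2% were then lower and 17.9% higher in RNA, and 12.5% higher in RPF. In TE 6.30% of all genes were then higher and 7.79% lower. The RNA calls of Cox5b and Cox7a1 held in all 18 alternatives.

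Cox5b, a subunit on the matrix side that binds zinc, had RNA of 40.4 and 42.6 CPM in null testes, against 105 and 118 CPM in WT testes. Its footprints overlapped at 201 and 296 CPM in null testes and 290 and 181 CPM in WT testes. RNA fell by 1.43 ± 0.25 (edgeR adjusted p = 0.00255) and TE rose by 1.50 ± 0.34 (adjusted p = 0.0225). The TE call held in 11 of 17 alternatives and was lost without any one of the RNA libraries or without null RPF replicate 2. Cox4i1 had RNA of 222 and 222 CPM in null testes, against 325 and 326 CPM in WT testes, and footprints of 2312 and 1831 CPM in null testes, against 1137 and 1734 CPM in WT testes. Its RNA fell by 0.55 ± 0.19 (adjusted p = 0.0478), which held in 8 of 18 alternatives and was lost without any one of the RNA libraries, and its footprint change of 0.53 ± 0.18 was not called. That footprint change was called without null RPF replicate 2 (0.71, adjusted p = 0.0457), without WT RPF replicate 2 (0.87, adjusted p = 0.000706) and with the length trend removed (0.64, adjusted p = 0.0485).

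Cox7a1, the heart and muscle form of subunit 7a, was low throughout. Its RNA was at 1.07 and 0.697 CPM in null testes, against 3.09 and 3.28 CPM in WT testes, and its footprints at 5.18 and 6.73 CPM in null testes, against 9.51 and 7.83 CPM in WT testes. RNA fell by 1.82 ± 0.31 (edgeR adjusted p = 0.00224). Markers of peritubular myoid cells, the contractile cells of the tubule wall, moved with it: their 8 genes summed to 163 and 157 CPM in null RNA, against 466 and 446 CPM in WT RNA, and to 485 and 517 CPM in null RPF, against 677 and 618 CPM in WT RPF. Their part in the Cox7a1 result was not tested.

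The testis forms of complex IV made up most of their pairs in every library. Cox6b2 made up 88.6% and 89.7% of the pair Cox6b2 and Cox6b1 in null RNA (by FPKM), against 87.4% and 87.6% in WT RNA. Cox7b2 made up 90.3% and 92.4% of its pair with Cox7b in null RNA, against 91.2% and 91.5% in WT RNA. In footprints Cox6b2 made up 92.2% and 86.4% of its pair in null testes, against 86.0% and 91.7% in WT testes, which overlapped. Cox7b2 made up 92.6% and 93.3% of its pair in null footprints, against 91.9% and 91.2% in WT footprints, which did not. Cox8c was slightly lower relative to Cox8a, at 83% and 81.4% in null RNA against 86.4% and 86.2% in WT RNA, and at 92.4% and 91.4% in null RPF against 93.5% and 94.1% in WT RPF, with no overlap in either assay. Cox8c RNA fell by 0.70 ± 0.19 (edgeR adjusted p = 0.0211) and Cox6b2 and Cox7b2 were not called (-0.29 ± 0.14 and 0.40 ± 0.18). With the longest coding transcript, Cox6b2 RNA was called lower (-0.57, adjusted p = 0.00701) and its TE higher (0.66, adjusted p = 0.0342). Its RNA was also called lower with the RNA libraries fitted alone (-0.23, adjusted p = 0.000785). With the length trend removed it was 0.22 and not called (adjusted p = 0.381). The Cox8c call was lost without any one of the RNA libraries and when the length trend was taken out (adjusted p = 0.756). With that trend removed, Cox7b2 RNA was called higher, by 0.94 ± 0.135 (adjusted p = 0.00109), and its TE lower (-0.67 ± 0.187, adjusted p = 0.0478). Cox7b2 RNA was also called higher without either WT RPF library (adjusted p = 0.0234 and 0.0381).

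Muscle and lung forms stood low in their pairs in every library, and the hypoxia form Ndufa4l2 did so in footprints. Cox4i2, the lung form of subunit 4, made up at most 0.162% of its pair with Cox4i1 in any library, and Cox6a2 at most 0.136% of its pair with Cox6a1. Cox7a1 made up 0.662% and 0.414% of its pair with Cox7a2 in null RNA, against 2.14% and 2.13% in WT RNA. Ndufa4l2 made up 16% and 27.5% of its pair with Ndufa4 in null RNA, against 46.1% and 43.3% in WT RNA, but 1.4% and 1.29% in null RPF, against 1.86% and 2.07% in WT RPF. Cyct, the testis cytochrome c, made up 70.3% and 63.7% of its pair with Cycs in null RNA, against 58.4% and 57.8% in WT RNA, and at least 91.3% in every footprint library.

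**Figure D4:**
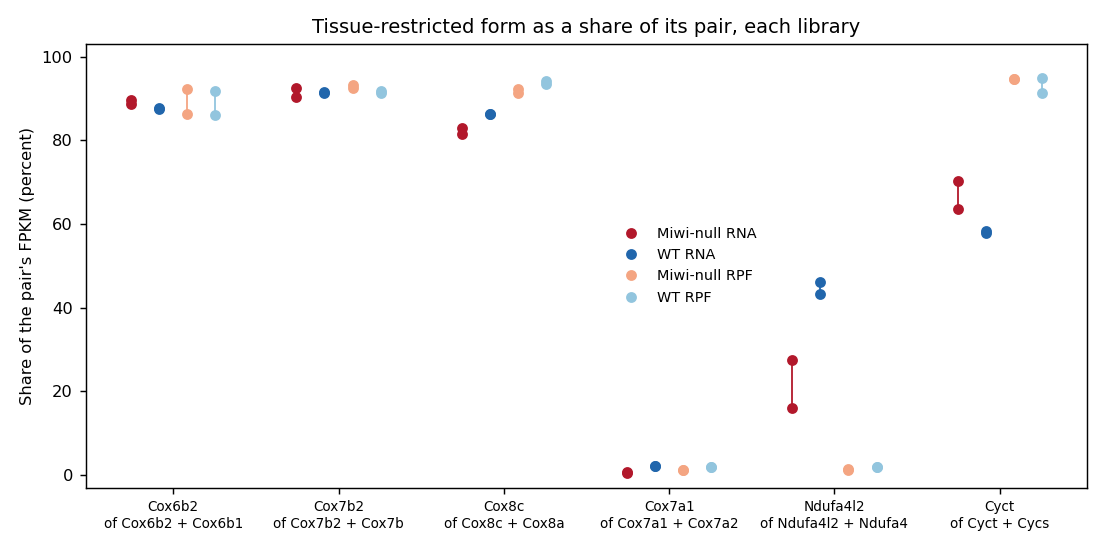
Share of the tissue-restricted form in the summed FPKM of its pair (percent), for 6 pairs; each point is 1 library, joined by a line to its replicate, in the order Miwi-null RNA, WT RNA, Miwi-null RPF and WT RPF. Cox6b2, Cox7b2 and Cox8c stay above 80% in every library, while Ndufa4l2 is at 43.3% and 46.1% in WT RNA but at 2.07% or less in all footprint libraries.

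In complex V, RNA was lower for 7 of 17 members, footprints were lower for 1, and TE was higher for 2 (edgeR, adjusted p under 0.05). These made up 41.2%, 5.88% and 11.8% of its members, against 20.8%, 13.4% and 7.36% of all genes. Taking out the length trend left RNA lower for 2 and higher for 1, against 18.2% and 17.9% of all genes. TE was again higher for 2, against 6.30% of all genes. Those 2 TE calls were Atp5k and Atp5j2, subunits e and f of the membrane-bound Fo part, of which subunit e takes part in joining ATP synthases into dimers.

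Atp5k (chromosome 5, 108433246 to 108434399, GRCm38.p6) had RNA of 3.29 and 3.57 CPM in null testes, against 19.7 and 26.1 CPM in WT testes. Its footprints were at 346 and 210 CPM in null testes, against 161 and 287 CPM in WT testes. The RNA values stood far apart and the footprint values overlapped. RNA fell by 2.74 ± 0.40 (edgeR adjusted p = 0.00123), the largest RNA change of all members, and TE rose by 3.04 ± 0.50 (adjusted p = 0.00761). Atp5j2 had RNA of 25.8 and 20.5 CPM in null testes, against 66.6 and 76.7 CPM in WT testes, with footprints of 287 and 319 CPM in null testes, against 318 and 270 CPM in WT testes. RNA fell by 1.63 ± 0.15 (adjusted p = 9.25e-05) and TE rose by 1.67 ± 0.20 (adjusted p = 0.00191).

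The catalytic F1 sector had a median RNA change of -0.49. Of its 5 genes, RNA was lower for Atp5c1, Atp5d and Atp5e and not called for Atp5a1 and Atp5b, which encode the alpha and beta subunits (-0.27 ± 0.11 and -0.23 ± 0.10). The RNA calls of Atp5c1 and Atp5d were lost without any one of the RNA libraries. Both were also lost with the length trend removed (edgeR adjusted p = 0.113 for Atp5c1 and 0.197 for Atp5d). TE calls numbered 0 of 5 by edgeR and by DESeq2, with 1 higher at an unadjusted p under 0.05. Of all genes, 20.8% were lower in RNA by edgeR, against 60% of these 5, and 7.36% were higher in TE. Atp5e, the epsilon subunit, was lower in both assays, with RNA of 51.6 and 55.7 CPM in null testes, against 76.4 and 91.4 CPM in WT testes, and footprints of 130 and 181 CPM in null testes, against 254 and 212 CPM in WT testes. Its RNA fell by 0.64 ± 0.17 (edgeR adjusted p = 0.0195) and its footprints by 0.58 ± 0.17 (adjusted p = 0.0356). Its RNA call was lost without either null RNA library or without WT RNA replicate 2 (adjusted p of up to 0.131). In the fit without the length trend, the RNA change of Atp5e was 0.05 and not called (adjusted p = 0.734). Its footprint call held in 10 of 18 alternatives and was lost without any one of the RNA libraries, without null RPF replicate 1 and without WT RPF replicate 1.

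**Figure D5:**
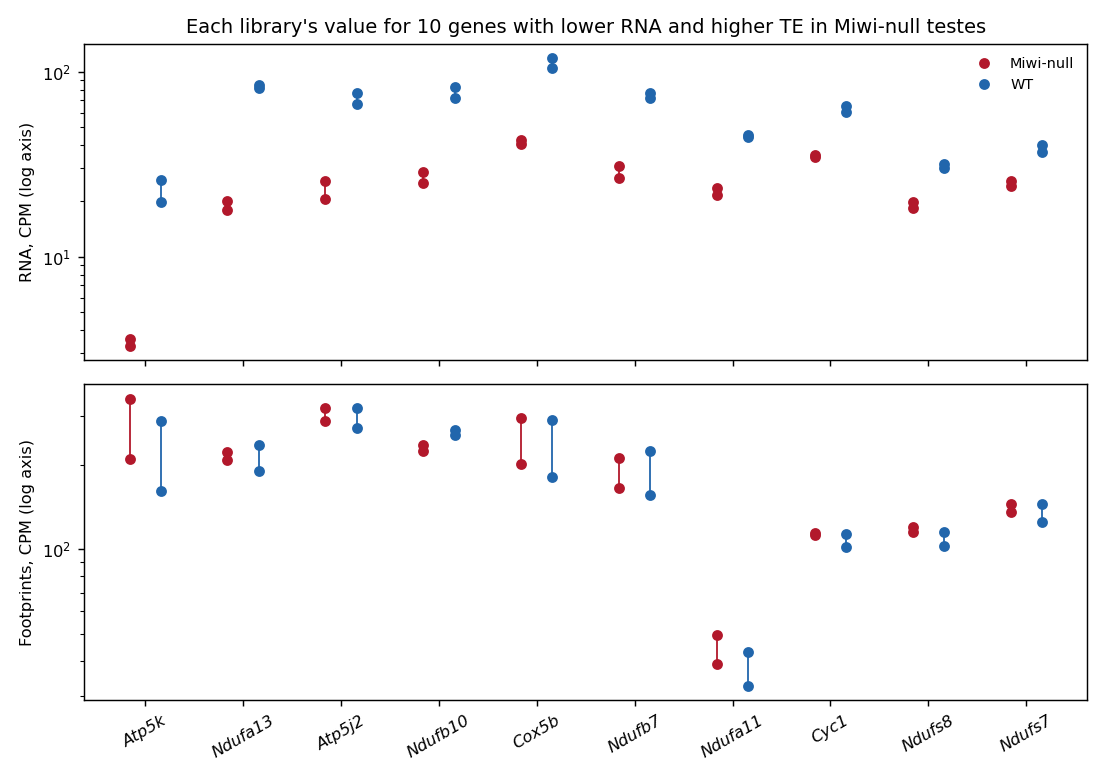
CPM of each library (log axes), RNA above and footprints below, for the 10 members with lower RNA and higher TE in Miwi-null testes both as fitted and with the length trend removed; each point is 1 library, joined to its replicate, Miwi-null on the left of each pair. The genes were chosen by those calls, and TE is computed from the same RNA values. Lower RNA with a lesser or no fall of footprints is thus set by the choice. RNA of both null libraries lies below both WT libraries for every gene shown. The footprint points of the genotypes overlap for all but Ndufb10 and Ndufs8.

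Footprints stood high against RNA for most members in both genotypes. In null testes 74 members had more footprints than RNA and 5 fewer (edgeR, adjusted p under 0.05), against 38.4% and 37.1% of all genes, with a median log2 ratio of 1.95. In WT testes 72 had more and 7 fewer, against 37.7% and 36.4% of all genes, with a median of 1.41. Removing the length trend gave 61 and 10 in null testes, against 36.3% and 35.1% of all genes, and 57 and 12 in WT testes, against 35.8% and 34.6% of all genes, and the medians became 1.13 in null testes and 0.76 in WT testes. The highest log2 ratios in null testes were those of Atp5k, at 6.33 ± 0.41 in null testes and 3.29 ± 0.33 in WT testes, and of Ndufa1, a small membrane-arm subunit, at 4.59 ± 0.29 in null testes and 4.14 ± 0.27 in WT testes. Ndufa1 was highest in WT testes, followed by Ndufb2 at 3.49, with Uqcrb, Ndufb3 and Cox7b2 also above Atp5k there. How fragments that reach beyond a coding sequence were counted is not given, which leaves the ratio of a short gene uncertain.

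A few members ran the other way in both genotypes. Atp5g1 had a log2 ratio of -2.05 ± 0.17 in null testes and -2.17 ± 0.16 in WT testes, and Atp5g2 of -1.85 ± 0.33 in null testes and -2.77 ± 0.32 in WT testes. Their footprints were at 10.1 and 9.12 CPM for Atp5g1 in null testes, against 13.2 and 9.30 CPM in WT testes, and at 4.11 and 7.25 CPM for Atp5g2 in null testes, against 7.71 and 3.69 CPM in WT testes. The third gene of this c ring, Atp5g3, had more footprints than RNA in both genotypes, with footprints of 402 and 396 CPM in null testes, against 350 and 370 CPM in WT testes. The 3 genes encode the same mature protein and share sequence, and the treatment of fragments that map to several places is not given, so the split among them is uncertain. Cox7a2l, which helps join complexes III and IV into supercomplexes, had a log2 ratio of -1.93 ± 0.32 in null testes and -1.01 ± 0.32 in WT testes. Cox7c and Atp5a1 were also below 0 in both genotypes.

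Assembly factors, which build the complexes without being part of them, had RNA lower for 12 of 52 (23.1%) and higher for 4 (7.69%), against 20.8% and 16.5% of all genes. Footprints were higher for 1 and lower for 2, against 12.0% and 13.4% of all genes, and TE was higher for 4 (7.69%) and lower for 2 (3.85%), against 7.36% and 7.56%. The shares lower in RNA and higher in TE were near those of all genes. Their median RNA change was -0.19 and their median TE change 0.13. Ndufaf8 and Atpif1, an assembly factor of complex I and the inhibitor of the ATP synthase, had lower RNA (-1.19 ± 0.14 and -1.63 ± 0.15, edgeR adjusted p = 0.000401 and 0.000104) and higher TE (1.41 ± 0.21 and 1.23 ± 0.21). The TE call of Atpif1 was lost without null RNA replicate 1 (adjusted p = 0.0566). Ecsit, an assembly factor of complex I, ran the other way, with RNA higher by 0.82 ± 0.10 and TE lower (-0.84 ± 0.15), the TE call being lost without either null RNA library (adjusted p of up to 0.0596). Lyrm7, a chaperone of the Rieske protein, had RNA higher by 1.13 ± 0.22 and footprints higher by 1.49 ± 0.23, the RNA call being lost without WT RNA replicate 1 (adjusted p = 0.0575). The RNA of both cytochrome c genes was lower, with changes of -1.12 ± 0.24 for Cycs and -0.56 ± 0.18 for Cyct, and neither was called in footprints. The Cycs call was lost without null RNA replicate 1 or without WT RNA replicate 2, and the Cyct call held in 9 of 18 alternatives. Both calls were also lost with the length trend removed. Among 13 genes of the citric acid cycle, RNA was lower for 4 (30.8%, against 20.8% of all genes) and higher for 1, and TE was higher for 2 (15.4%, against 7.36%). One of them was Mdh2, malate dehydrogenase (0.56 ± 0.13), whose call was lost without any one of the RNA libraries (adjusted p of up to 0.147). The difference between these lists and the members was not tested.

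Other short housekeeping genes and the subunits encoded in mitochondrial DNA are set beside the members here. Among all genes, 20.8% were lower and 16.5% higher in RNA, 13.4% lower and 12.0% higher in RPF, and 7.36% higher and 7.56% lower in TE. Of 83 cytosolic ribosomal protein genes, RNA was lower for 33 (39.8%) and higher for 1, footprints were lower for 2 and higher for 2 (2.41% each), and TE was higher for 17 (20.5%). Their median changes were -0.47 in RNA, -0.05 in RPF and 0.35 in TE. Of 78 mitochondrial ribosomal protein genes, RNA was lower for 24 (30.8%) and higher for 2, footprints were lower for 1 and higher for 3, and TE was higher for 12 (15.4%), with median changes of -0.31 in RNA, -0.01 in RPF and 0.25 in TE. Of 12 tested mitochondrially encoded subunits, RNA was lower for 9 (75%) and higher for 1, footprints were lower for 6 (50%), and TE was lower for 1 (8.33%; edgeR, adjusted p under 0.05), with median changes of -1.03 in RNA and -1.10 in RPF. Their footprints stood far below their RNA, with median log2 ratios of -5.09 in null testes and -5.27 in WT testes. In RPF 9 had a negative change, 0 a positive one and the rest a change of 0. Their footprint values are thus not on the same footing as those of the nuclear genes. Whether these lists differ from the members was not tested.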

How the data were processed

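Total RNA and RPF were sequenced from testes, per the labels. Fragment counts per transcript were deposited by the authors as whole numbers, without normalization. FPKM values were also deposited by the authors, and each equals its count over the length column and 1 total per library, which is larger than the totals used here. The authors' TE is a deposited ratio, RPF FPKM over RNA FPKM, which held within 1e-08 in 100% of rows. Per the submitters' processing notes the tools were STAR 2.5.0a, Bowtie 1.2.2 and cutadapt 2.5 and the build was GRCm38, without a role for each. The counting program and its settings for strand and multimapping were not given in the sources used here. Lengths were multiples of 3 in 84.7% of transcripts and in all 86 member transcripts used; the column is called coding length here, and what the other lengths span was not checked. A second gene ID named Atp5o, with fewer counts, was set aside.

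The transcript with the highest count stood for each gene, and edgeR 4.0.16 (R 4.3.3) was run as follows: filterByExpr (minimum count 10, minimum total 15), TMM over all 8 libraries, a robust quasi-likelihood fit of 4 groups with 4 residual degrees of freedom, and Benjamini-Hochberg adjustment over 16051 genes, called under 0.05. The fit gives each gene 1 dispersion for both assays. The pipeline was tested on simulated data. CPM are relative to TMM-scaled totals, errors are SE of the model, and all changes are relative to the other genes of a library. Alternatives were DESeq2 1.42.0, other scalings, no filter, each library left out, a replicate block, a lowess trend on coding length (span 0.3), fits of 2 groups alone and other transcript choices. Gene coordinates and promoter windows came from RefSeq by symbol.

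Named members were the isoform pairs, catalytic subunits and complex II, the up to 3 largest called changes per complex, contrast and direction, and the 3 highest and lowest ratios of RPF to RNA. Of the other lists, up to 2 called genes per direction are named. Ndufa11, Uqcr10, Uqcrh and Slc25a31 were named after their values were seen. The members, lists and tests were chosen with earlier results of these data known. Replicate numbers are not stated to pair libraries. Chi-square per degree of freedom between the replicates of a group was 1.18 in null RNA, 3.85 in WT RNA, 22.4 in null RPF and 44.1 in WT RPF. In null RNA it was only slightly above what sampling gives, and whether those libraries came from separate animals is not stated. Each library was kept as 1 sample. Values of some single genes that enter the counts are not reported here.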

Additional observations from a re-analysis of the deposited data

How the results depend on the processing

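Of 84 members tested, 33 were called in RNA, 6 in RPF and 23 in TE by edgeR. Leaving out each library in turn gave 19 to 46 calls in RNA, 3 to 26 in RPF and 5 to 35 in TE. Whether replicate numbers pair the libraries is not stated. With a block for the replicate number there were 27, 3 and 10 calls. Those were 32.1%, 3.57% and 11.9% of members, against 31.3%, 19.1% and 7.71% of all genes. The footprint libraries deviated together across numbers, so a crossed block was added after seeing the data, and it gave 61, 40 and 57 calls, or 72.6%, 47.6% and 67.9% of members, against 56.7%, 51.0% and 40.7% of all genes. Fits of the 2 groups compared alone gave 58 calls in RNA and 0 in RPF, where 6 members had an unadjusted p under 0.05. These were 69.9% and 0% of members, against 59.3% and 12.7% of all genes. Without TMM there were 25, 4 and 13 calls, or 29.8%, 4.76% and 15.5% of members, against 35.5%, 24.4% and 14.5% of all genes. The median change of all genes was then 0.02 in RNA and -0.10 in TE, in place of -0.07 in RNA and 0.04 in TE. Without TMM, RNA was higher for 2 members and lower for 23, and with the length trend removed higher for 10 and lower for 17. With that trend removed the RNA change of Atp5e was 0.054, that of Uqcr10 0.23 and that of Uqcrh 0.14, in place of falls, and none was called (adjusted p = 0.734, 0.348 and 0.321). The RPF change of Cox6a1 was 0.80 without WT RPF replicate 2 (adjusted p = 0.027) and -0.67 without WT RPF replicate 1 (adjusted p = 0.0399), in place of -0.14 (adjusted p = 0.841). The causes were not tested. The counts for RPF over RNA, both directions together, ran from 71 to 82 in null testes and from 69 to 82 in WT testes. With 79 of 84 called in the plain fit, they had little room to rise. Of all genes, 57.4% to 81.9% were called in null testes and 55.8% to 80.9% in WT testes. Without the length trend, 61 had more and 10 fewer footprints in null testes, in place of 74 and 5. In WT testes 57 had more and 12 fewer, in place of 72 and 7. The RNA changes of Cox4i2, Cox7a1 and Ndufa4l2 rest on as few as 1, 8 and 25 counts in a null RNA library.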

Other observations

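Genes that control mitochondrial biogenesis were measured beside the subunits. Of 9 such regulators, RNA was lower in null testes for 5 and higher for 0, and footprints were lower for 1 (edgeR, adjusted p under 0.05). Those lower made up 55.6% in RNA, against 20.8% of all genes, and 11.1% in footprints, against 13.4%, a share near that of all genes. The gene lower in footprints was Tfam, the transcription and packaging factor of mitochondrial DNA. Its RNA was at 15.9 and 15.7 CPM in null testes, against 48.8 and 51.6 CPM in WT testes, and its footprints were at 21.3 and 25.5 CPM in null testes, against 292 and 227 CPM in WT testes. The genotypes were apart in both assays. RNA fell by 1.67 ± 0.15 (adjusted p = 8.95e-05), footprints by 3.46 ± 0.15 (adjusted p = 1.27e-06) and TE by 1.79 ± 0.21 (adjusted p = 0.00163), and these calls held in all alternatives. In mouse a testis form of Tfam is known from late germ cells. Markers of elongating spermatids fell in footprints too, their 10 genes summing to 145 and 123 CPM in null RPF, against 7019 and 6910 CPM in WT RPF, and their part in the Tfam result was not tested. Ppargc1b, a coactivator of mitochondrial genes, had RNA of 0.919 and 0.872 CPM in null testes, against 2.96 and 2.08 CPM in WT testes, a fall by 1.49 ± 0.34 (adjusted p = 0.00928) that was lost without either null RNA library or without WT RNA replicate 1 (adjusted p of up to 0.0739). Of 7 carriers and channels of the mitochondrial membranes, RNA was lower for 2 (28.6%, against 20.8% of all genes) and TE higher for 1 (14.3%, against 7.36%). That TE call was of Vdac1, a channel of the outer membrane, and held in 3 of 17 alternatives. The testis ADP/ATP carrier Slc25a31 had RNA of 51.5 and 52.9 CPM in null testes, against 52.1 and 54.7 CPM in WT testes. The general form Slc25a4 had 27.4 and 24.5 CPM in null testes, against 39.0 and 40.4 CPM in WT testes, a fall by 0.61 ± 0.12 (adjusted p = 0.0056) that was lost without null RNA replicate 2 (adjusted p = 0.0646).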
